A study of Mus musculus with 6 samples.

Results

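The genes described here are nuclear genes of the respiratory chain, that is its subunits and, under the Ndufaf symbols, 8 assembly factors of complex I, measured in the cortex of mouse embryos at E18.5 with and without the RNA-binding protein Ybx1. The group was chosen with earlier results of these data known, and its members were set by a rule on symbols. For complex I every row of the expression table whose symbol starts with Ndufa, Ndufb, Ndufc, Ndufs or Ndufv was taken. For other complexes the symbol starts were Uqcr (complex III), Cox5, Cox6, Cox7 or Cox8 (complex IV) and Atp5 (complex V). Sdha, Sdhb, Sdhc and Sdhd (complex II) and Cyc1 (complex III) were taken by full symbol. This gave 92 of the 17348 genes in the table, of which 48 belong to complex I, 4 to complex II, 9 to complex III, 14 to complex IV and 17 to complex V. The filter on low counts left 87 of them and 13570 genes in all for testing.

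The respiratory chain sits in the inner mitochondrial membrane. Complex I (NADH dehydrogenase) and complex II (succinate dehydrogenase) pass electrons to ubiquinone, complex III (the cytochrome bc1 complex) passes them on to cytochrome c and complex IV (cytochrome c oxidase) to oxygen. Complexes I, III and IV pump protons as they do so, and complex V (ATP synthase) uses the gradient to make ATP. A few core subunits are encoded by mitochondrial DNA, and all others by nuclear genes whose mRNAs are translated in the cytosol. Neurons depend heavily on this route for their ATP.

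The cKO libraries came from Ybx1 fl/fl embryos carrying Nestin-Cre, in which exons 3 to 8 of Ybx1 are removed in neural progenitors and the cells that descend from them. The control (Ctrl) libraries came from littermates whose genotype the labels give as WT. The paper defines its controls as Ybx1 fl/fl, and its RNA-seq methods call the control littermates wild type. Neither description lists Nestin-Cre, so the presence of Cre and the loss of Ybx1 cannot be told apart. Blood vessels, microglia and other cells outside the neural lineage would be expected to keep Ybx1 in this model, which was not measured here. The bulk cortex contains such cells. There were 3 libraries per genotype, made from mRNA of E18.5 cortex, and the submitters describe the sequencing as done in 3 batches of different biological replicates. How many embryos went into a library is not stated in the sources used here. In bulk tissue, fewer cells of a type and less RNA per cell cannot be told apart.

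Library totals lay between 15091951 and 16885451 estimated counts. Ybx1, the targeted gene, stood at 1015, 1297 and 956 CPM (counts normalized to library size) in the Ctrl libraries and at 24.0, 24.8 and 24.9 CPM in the cKO libraries, 2.25% of the Ctrl mean (log2 fold change -5.47 ± 0.16 SE; adjusted p = 7.0e-07, edgeR quasi-likelihood test). The genotype labels thus matched the targeted gene in all 6 libraries. All 4 Y-linked genes tested were lower in cKO with an adjusted p under 0.05, so that the sex of the embryos and the genotype cannot be told apart. Summed markers of neurons were abundant, with 94923 to 101210 estimated counts in Ctrl and 88748 to 98365 in cKO. Markers of muscle (18 to 20 against 15 to 17 counts) and of choroid plexus (2 to 6 against 1 to 5) were near 0 in both groups. The 6 endothelial and pericyte markers summed to 4737 to 5083 counts in Ctrl and 5245 to 6481 in cKO, and the 4 fibroblast markers to 86 to 108 and 119 to 143. These sums did not overlap between groups, but they are not scaled to library size, so that sequencing depth enters them. On scaled CPM the groups did not overlap for 2 of 6 endothelial and pericyte markers and 1 of 2 tested fibroblast markers, all higher in cKO. Of all tested genes 7.35% were higher without overlap. The part of these cell types in the values below was not tested. None of the marker genes passed an adjusted p of 0.05 in edgeR or DESeq2, and at an unadjusted p under 0.05 edgeR had 2 endothelial and pericyte, 1 radial glia and 1 astrocyte marker, all higher in cKO. At that limit 3.14% of all tested genes were higher. Most markers of the 2 glial lists went the other way: 5 of 8 radial glia and 2 of 3 tested astrocyte markers were below 0 (medians -0.094 and -0.36). Without Ctrl replicate 2 these medians were -0.0088 and -0.13. Of the endothelial and pericyte markers, 1 of 6 was below 0 with all 6 libraries.

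One library stood apart for the genes described here. Ctrl replicate 2 was the highest of the 6 libraries for 82 of the 87 tested members, against 4558 of all 13570 genes tested. Ctrl replicate 3 went the other way and was the lowest for 54 of them, against 3051 of all 13570 genes tested. Medians of the complexes and of the gene lists are therefore given with and without Ctrl replicate 2.

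To show the DNA in front of these genes, RefSeq promoter sequences of build GRCm38.p6 (250 bases before to 50 bases after the start of transcription) were searched on both strands for letters of factors known for mitochondrial genes. A promoter was found for 76 of the 92 members, 81 promoters in all. The central letters of the site of NRF1, CGCANGCG, were present in 39.5% of the members' promoters, against 15.9% of the promoters of all tested genes and 8.21% of all 32851 promoters. Letters of the YY1 site, AANATGGC, were present in 23.5% of the members' promoters, 7.67% of those of tested genes and 6.05% of all. An ETS site as bound by GABPA, CCGGAAGT, was found in 6.17%, 7.31% and 3.89%, and TATAAA in 9.88%, 7.04% and 13.6%. These letters can sit inside one another's flanks and describe the DNA only.

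The promoters shown are those of Cox7a2l and Cox8a, the members on which the expression results turn, together with Sdha and Atp5b as core subunits whose promoters hold the NRF1 and YY1 letters. Each runs from 150 bases before to 30 bases after the start, on the strand of the gene, with the searched letters in capitals. Cox7a2l (chr17:83514304-83514483, minus strand) holds none of them, Cox8a (chr19:7217587-7217766, minus strand) the ETS letters read on the other strand, Sdha (chr13:74350211-74350390, minus strand) the NRF1 letters at 3 places and Atp5b (chr10:128083157-128083336, plus strand) the YY1 letters read on the other strand. The start that RefSeq gives for Cox7a2l lies inside the span that GENCODE M21 gives the gene, which begins farther upstream, so this window holds the RefSeq start only.
Cox7a2l: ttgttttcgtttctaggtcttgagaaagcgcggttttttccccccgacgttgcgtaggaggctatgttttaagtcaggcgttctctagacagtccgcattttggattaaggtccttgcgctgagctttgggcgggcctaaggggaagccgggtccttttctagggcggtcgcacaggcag
Cox8a: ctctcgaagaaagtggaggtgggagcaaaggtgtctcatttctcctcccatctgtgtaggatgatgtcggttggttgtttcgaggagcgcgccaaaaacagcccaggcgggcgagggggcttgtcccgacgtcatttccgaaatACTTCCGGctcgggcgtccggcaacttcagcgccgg
Sdha: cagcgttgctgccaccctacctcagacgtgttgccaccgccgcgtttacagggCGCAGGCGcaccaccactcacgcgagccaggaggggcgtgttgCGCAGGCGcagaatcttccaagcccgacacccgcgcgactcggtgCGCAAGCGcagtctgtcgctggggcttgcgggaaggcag
Atp5b: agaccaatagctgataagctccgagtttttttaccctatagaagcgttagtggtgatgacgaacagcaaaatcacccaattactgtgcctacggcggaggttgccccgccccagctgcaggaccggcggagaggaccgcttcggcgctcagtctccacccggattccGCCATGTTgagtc

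Levels of different genes were compared on the authors' TPM, which is scaled per transcript length. The members were abundant and short: their median TPM over the 6 libraries was 223, against 25.4 for all genes tested, and their median transcript length 1216 nt, against 3555 nt. Median GC content of the transcripts was 49.9% for members and 49.7% for all. Complex V had the highest median TPM of the 5 complexes at 646, followed by complex IV at 582, complex III at 211, complex I at 166 and complex II at 141. The highest single members were Atp5md (TPM 1297 over all libraries), a small membrane subunit of ATP synthase, and Cox7c (TPM 1131), a small subunit of complex IV. The lowest tested member was Ndufa4l2 with a TPM of 8.86, a paralog of Ndufa4 known from hypoxic cells.

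**Figure D1:**
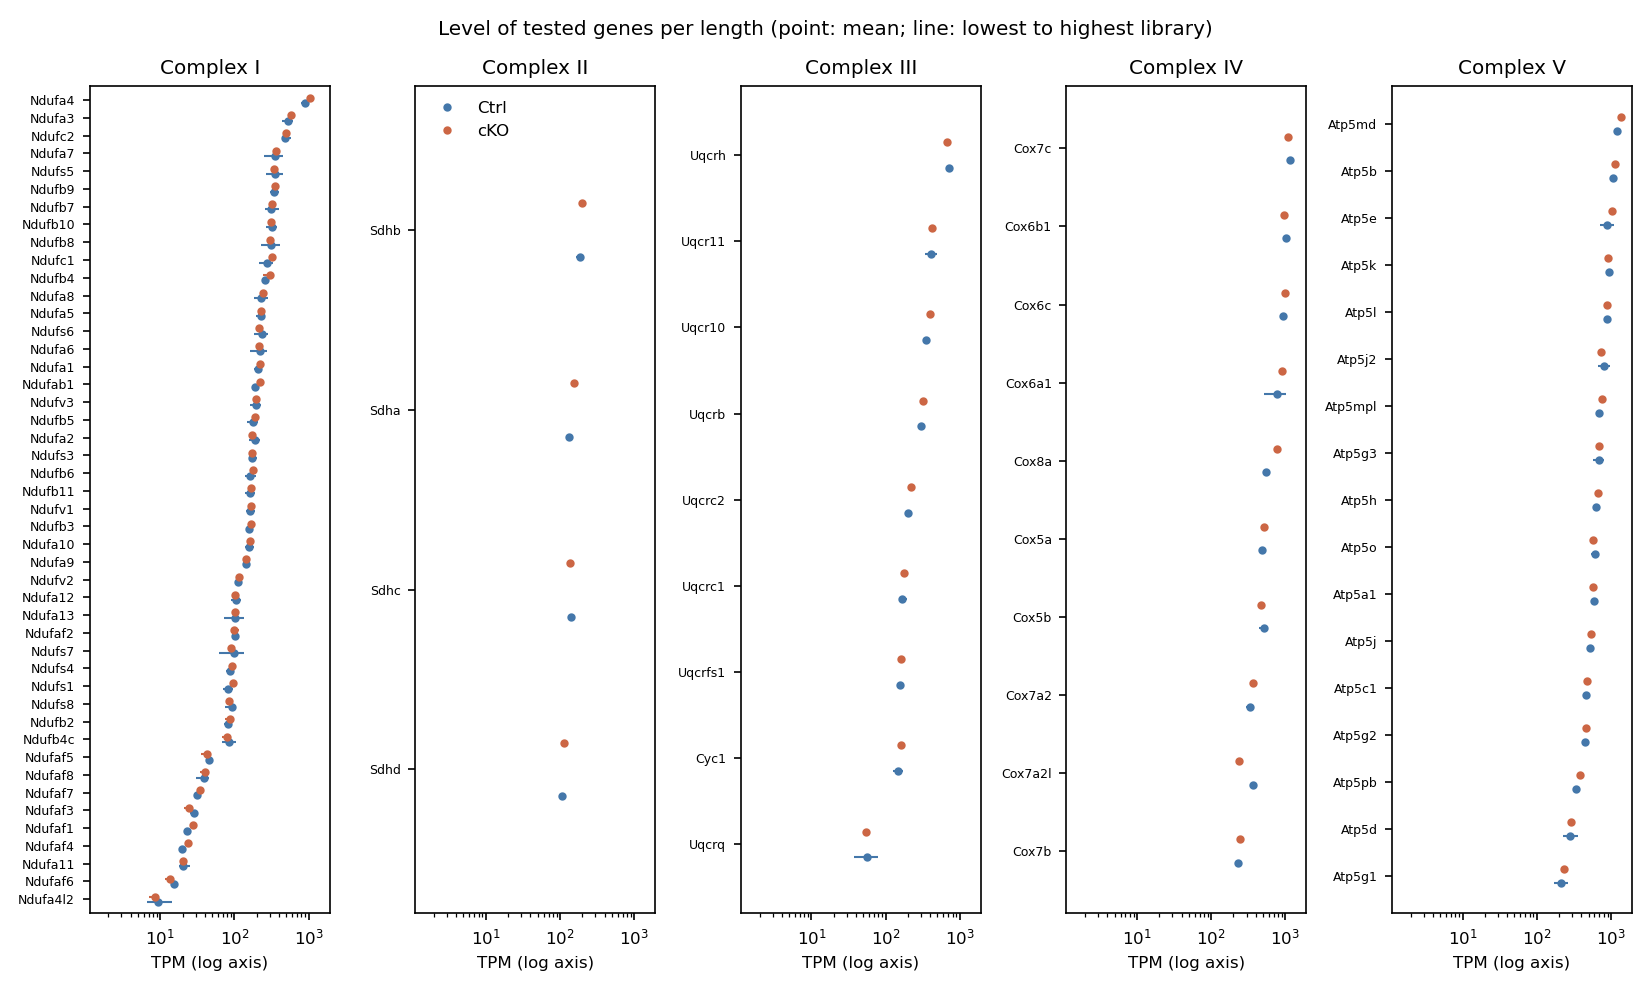
Level of 86 of the 87 tested genes in TPM (log axis), by complex. Points give the mean of the 3 Ctrl (blue) and 3 cKO (orange) libraries and lines run from the lowest to the highest library. Complexes IV and V lie to the right of complexes I and II, and Cox7a2l and Cox8a are the complex IV genes whose points lie farthest apart.

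In edgeR without a correction for length and GC content, none of the 87 tested members had an adjusted p under 0.05 with all 6 libraries, where 10 of 13570 genes did (0.0737%). DESeq2 called 1 member, Cox7a2l, where 0.808% of all genes with an adjusted p were called, and limma on log2(TPM + 1) called 0. At an unadjusted p under 0.05, 1 member was lower in cKO (Cox7a2l) and 0 were higher, while 3.49% of all tested genes were lower and 3.14% higher at that limit. The members' median log2 fold change was -0.15 (all genes 0.0027), with 78 members below 0 and 9 above, whereas 49.4% of all tested genes were below 0. The groups of 3 libraries did not overlap for 5 members that were lower in cKO (Ndufaf5, Uqcrh, Cox7a2l, Cox7c and Atp5a1) and for 0 that were higher, against 6.93% and 7.35% of all tested genes.

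The small downward median of the members rested on Ctrl replicate 2. As a share of all estimated counts, the tested members took 0.588%, 0.803% and 0.529% in Ctrl replicates 1, 2 and 3 and 0.606%, 0.590% and 0.603% in the cKO replicates. The Ctrl mean was thus 0.640% ± 0.144 (SD, n = 3) and the cKO mean 0.600% ± 0.0089 (SD, n = 3), and the cKO values lay inside the range of the Ctrl values. Without Ctrl replicate 2 the members' median log2 fold change was 0.082, with 22 members below 0 and 65 above, where 48.9% of all genes tested were below 0. In that fit 5 members were higher and 1 lower at an unadjusted p under 0.05, where 5.51% of all 13687 genes tested were higher and 6.55% lower. Without Ctrl replicate 3, the lowest Ctrl library, the median was -0.26, with 19 members lower at an unadjusted p under 0.05 (7.97% of all genes) and 0 past the adjusted p in edgeR. On the authors' TPM (log2 of TPM + 1, limma), where the median of all genes was itself shifted to 0.14, the members' median was 0.067, with 25 below 0. On that scale 20.6% of all genes were below 0. A direction for the group as a whole therefore cannot be given from these 6 libraries.

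**Figure D2:**
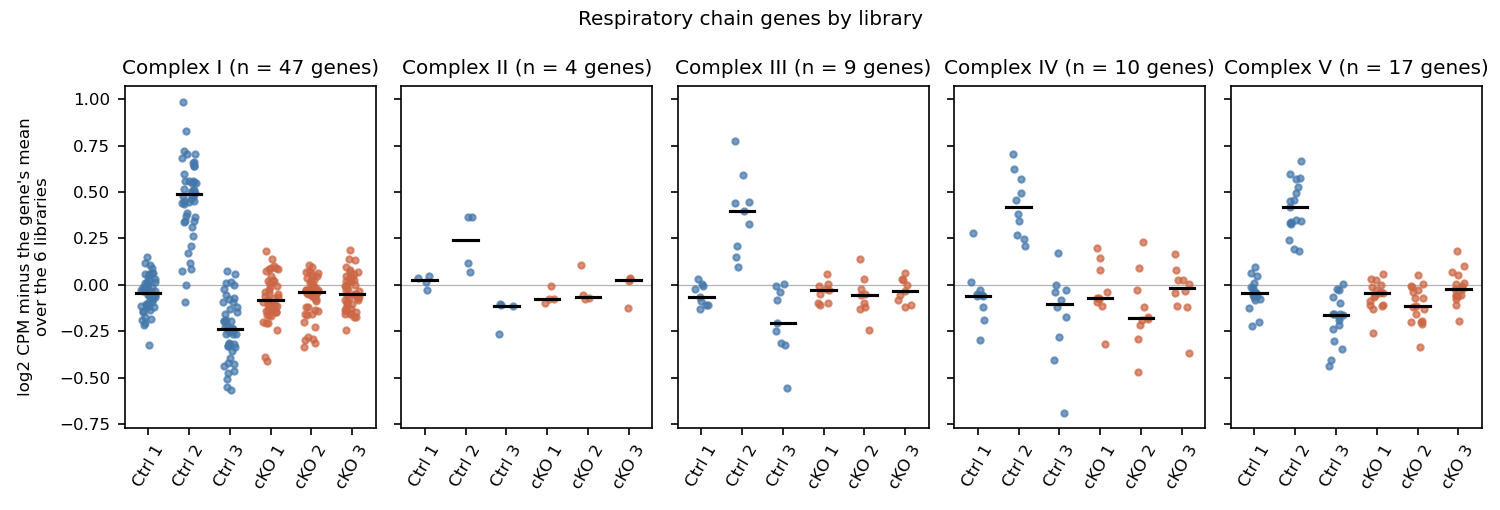
Log2 CPM of each tested gene minus its mean over the 6 libraries, by complex and library (blue, Ctrl; orange, cKO). Black bars are medians over the genes of a complex. In every complex Ctrl 2 has the highest median (0.24 to 0.49), and the 3 cKO libraries lie between Ctrl 2 and Ctrl 3 or, for cKO 2 in complex IV, below Ctrl 3.

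Transcript length moved with this library. The 417 tested genes with transcripts under 1000 nt had a median deviation of 0.48 (log2) in Ctrl replicate 2, close to the 0.45 of the members, and the 5497 genes over 4000 nt one of -0.22. Ctrl replicate 3 went the other way for the short genes, at -0.19. Across the 86 members with a length, the log2 fold change correlated with transcript length at Pearson r = 0.18 (Spearman rho = 0.20) with all libraries and at -0.026 (rho = -0.00023) without Ctrl replicate 2, a description over genes that share the same libraries. With transcript GC content it correlated at r = -0.21 (rho = -0.32) with all libraries and at 0.17 (rho = 0.12) without Ctrl replicate 2. Over the 13318 tested genes with a length, the correlation with length was 0.24 (rho = 0.34) and that with GC content -0.16 (rho = -0.26). After a smooth trend on transcript length and GC content was removed from each library, the members' median was -0.016, with 48 below 0 and 39 above. In that fit 48.6% of all genes were below 0. Under that correction 2 members passed an adjusted p of 0.05 in edgeR, where 1.11% of all genes did, and without Ctrl replicate 2 the same 2 did, where 0.891% did. These are Cox7a2l and Cox8a.

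Cox7a2l was the member with the largest difference. It encodes a relative of the complex IV subunit Cox7a2 known for joining complexes III and IV into supercomplexes (also called SCAF1) and lies on chromosome 17 (GRCm38, 83501918 to 83517330, minus strand; ENSMUSG00000024248). The floxed mice of the paper were made from C57BL/6J eggs, and whether the protein has this role in them was not tested. The CPM of Cox7a2l was 125, 168 and 116 in the Ctrl libraries and 82.7, 74.5 and 80.01 in the cKO libraries. All 3 cKO values lay below the lowest Ctrl value, so the groups did not overlap. The means were 137 ± 27.8 and 79.1 ± 4.17 CPM (SD, n = 3), a log2 fold change of -0.79 ± 0.15 (SE). With all 6 libraries the unadjusted p was 0.00048 and the adjusted p 0.21 in edgeR, and the exact two-sided permutation test over libraries gave p = 0.1, the smallest that 3 against 3 allows. Without Ctrl replicate 2 the log2 fold change was -0.61 (edgeR adjusted p = 0.0081), with the length and GC correction -0.66 (edgeR adjusted p = 0.0035), and DESeq2 on all 6 libraries gave -0.79 (adjusted p = 0.00076). Over the 16 alternatives its log2 fold change was negative each time (-0.89 to -0.61), its adjusted p ran from 0.00076 to 1.0 and it passed 0.05 in 5.

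Cox8a moved the other way. It encodes the ubiquitous form of the smallest complex IV subunit and lies on chromosome 19 (GRCm38, 7215153 to 7217616, minus strand; ENSMUSG00000035885). Its CPM was 57.4, 83.8 and 53.3 in Ctrl and 80.9, 75.2 and 79.1 in cKO. The 3 cKO libraries lay above Ctrl replicates 1 and 3 and below Ctrl replicate 2, so the groups overlapped. With all 6 libraries the log2 fold change was 0.27 ± 0.17 (SE), with an adjusted p of 0.82 in edgeR. Without Ctrl replicate 2 it was 0.50 (edgeR adjusted p = 0.026) and with the length and GC correction 0.52 (edgeR adjusted p = 0.026). Over the 16 alternatives it was positive each time (0.15 to 0.52), with an adjusted p from 0.026 to 1.0, and passed 0.05 in 4. Both genes had whole estimated counts in every library, as is the case where no read is divided between genes, and the annotation (GENCODE M21) places no other gene over either.

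Cox7a2l and Cox8a were then set against each other within each library, a pair formed after their values had been seen and picked for opposite differences, so that the ratio is a description. The TPM of Cox8a was 1.48, 1.53 and 1.48 times that of Cox7a2l in the Ctrl libraries and 3.19, 3.28 and 3.13 times in the cKO libraries (means 1.496 ± 0.026 and 3.20 ± 0.076, SD, n = 3). The transcripts differ in length, at 1129 nt for Cox7a2l and 550 nt for Cox8a. Against Cox7a2, its closest paralog in the list, Cox7a2l had a TPM ratio of 1.06, 1.09 and 1.17 in Ctrl and of 0.716, 0.627 and 0.654 in cKO. Cox7a2 itself had a log2 fold change of -0.073 with all libraries and of 0.13 without Ctrl replicate 2. Relative to the median member of the same library (log2 CPM), Cox7a2l stood at 1.35 ± 0.087 in Ctrl and 0.678 ± 0.107 in cKO, and Cox8a at 0.263 ± 0.018 and 0.666 ± 0.085 (SD, n = 3). On that scale the groups did not overlap for 7 of the 87 members that were lower in cKO (Ndufa12, Ndufa2, Ndufaf3, Ndufs3, Cox5b, Cox7a2l and Cox7c) and for 1 that was higher (Cox8a), against 2.79% and 5.14% of all tested genes set on the same scale. Taking off the members' own median removes their shared shift between libraries and adds it to all other genes. These shares are therefore no neutral background for the members, and no excess is read from them.

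**Figure D3:**
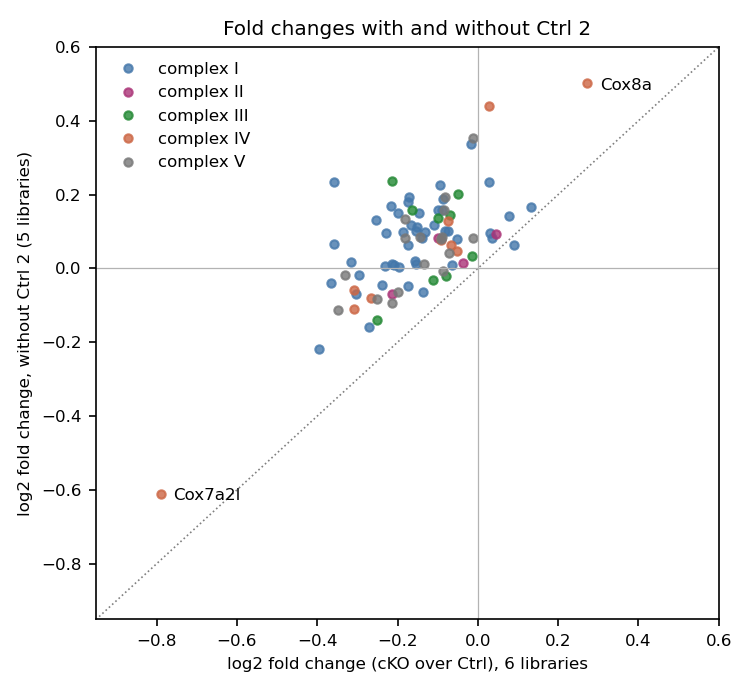
Log2 fold change (cKO over Ctrl) of the 87 tested genes with 6 libraries (x axis) and without Ctrl 2 (y axis), coloured by complex. The dotted line marks equal values. Most genes pass from below 0 on the x axis to above 0 on the y axis (78 below 0 with 6 libraries, 22 without Ctrl 2), while Cox7a2l (-0.79 and -0.61) and Cox8a (0.27 and 0.50) lie apart from them on both axes.

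Of the other complex IV genes, Cox7c and Cox5b had the lowest p. Cox7c was measured at 73.4, 108 and 76.6 CPM in Ctrl and 71.8, 66.0 and 70.5 CPM in cKO. The groups did not overlap, but the gap between the lowest Ctrl and the highest cKO library was small, with a log2 fold change of -0.31 ± 0.15 (SE) and an adjusted p of 0.80 in edgeR. Cox5b, a subunit facing the matrix, was measured at 58.6, 86.3 and 51.5 CPM in Ctrl and at 53.7, 51.2 and 53.8 CPM in cKO (log2 fold change -0.31), and these groups overlapped. Cox5a, another small subunit, had a log2 fold change of -0.067 and Cox6c one of -0.092, and both turned positive without Ctrl replicate 2. With that library left out Cox7c stood at -0.11 and Cox5b at -0.058. The complex IV median was -0.082 with all libraries and 0.056 without Ctrl replicate 2, with 8 of 10 tested genes below 0 in the fit of all libraries.

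**Figure D4:**
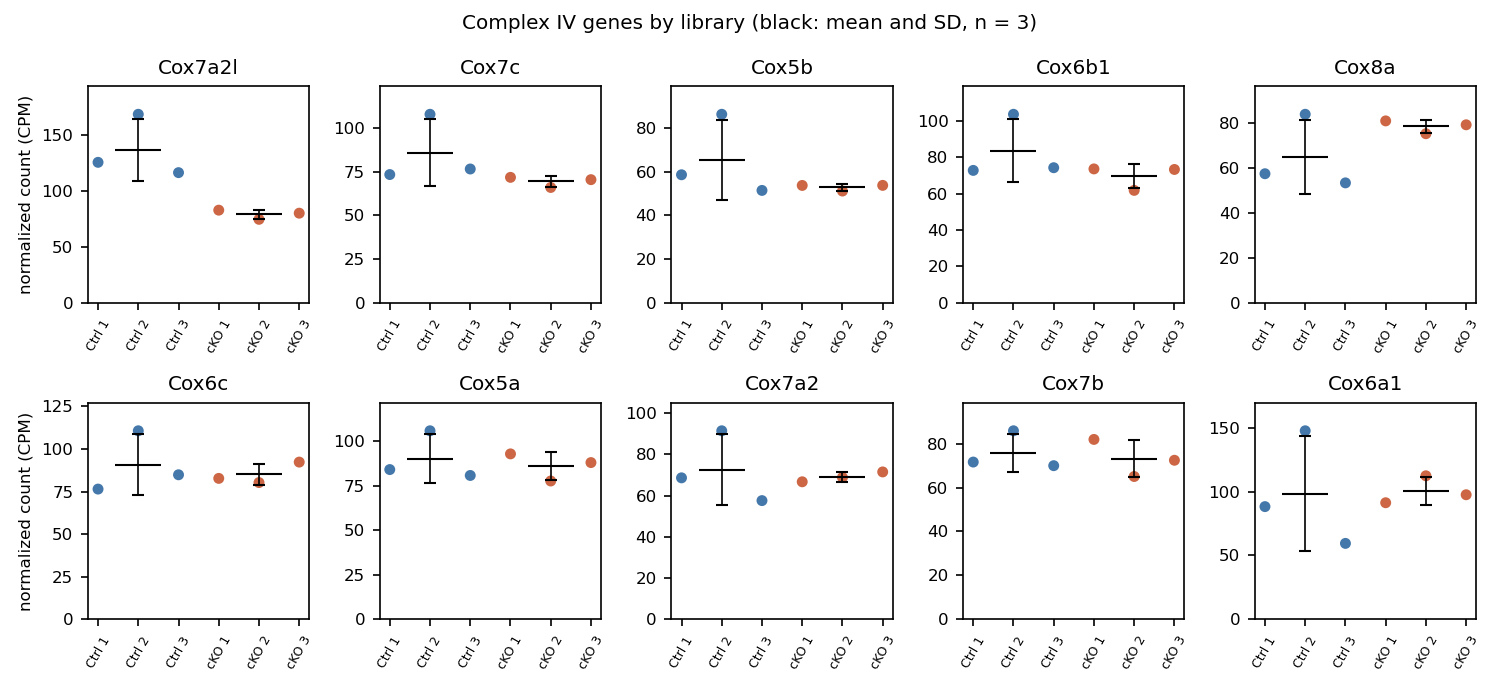
Normalized counts (CPM, axis from 0) of the 10 tested complex IV genes in each library, ordered by p. Black marks are the mean and SD of 3 libraries. Ctrl 2 is the highest library for all 10 genes, and the cKO libraries lie below all Ctrl libraries for Cox7a2l and, by a small gap, Cox7c.

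Several complex IV genes come as a form made in most tissues and one made in muscle or testis. The muscle and testis forms were at or near 0 here. Cox6a2 had estimated counts of 0, 1 and 1 in Ctrl and 0 in all cKO libraries, Cox7a1 had 4, 1 and 0 against 2, 2 and 0, Cox6b2 had 3, 2 and 2 against 4, 2 and 0, and Cox7b2 had 1 count in 1 Ctrl library. None was tested, and no fold is given since both groups lie near the limit of 3 counts (0.176 to 0.206 CPM). The common forms were high, with a TPM of 760 ± 250 in Ctrl and 904 ± 97.8 in cKO for Cox6a1 and of 335 ± 43.1 and 362 ± 7.95 for Cox7a2 (SD, n = 3). Cox6a1 had a log2 fold change of 0.027 with all libraries, which ran from -0.23 to 0.44 as single libraries were left out. Cox4i1, the common form of the largest nuclear-encoded complex IV subunit, is not among the members by the symbol rule. It stood at 208, 328 and 181 CPM in Ctrl and 196, 192 and 193 CPM in cKO, and its log2 fold change of -0.31 (adjusted p = 0.84, edgeR) was -0.0074 without Ctrl replicate 2. Its lung form Cox4i2 had between 8 and 24 estimated counts per library.

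Complex I is the largest group, with 47 tested members, of which 41 were below 0 and 6 above (median log2 fold change -0.16, and 0.097 without Ctrl replicate 2). None passed an unadjusted p of 0.05 in edgeR or DESeq2. Its 3 members of lowest p were Ndufaf3, Ndufaf5 and Ndufs6. Ndufaf3, an assembly factor, had 14.98, 19.3 and 12.7 CPM in Ctrl and 10.2, 13.4 and 12.1 CPM in cKO, with a log2 fold change of -0.40 ± 0.19 (SE; unadjusted p = 0.063, adjusted p = 0.78, edgeR). Ndufaf5, which modifies the core subunit Ndufs7, had 22.3, 27.1 and 21.4 CPM against 21.0, 17.6 and 20.1 CPM, and its groups did not overlap (log2 fold change -0.27, adjusted p = 0.80, edgeR). Ndufs6, an accessory subunit that binds zinc, had 21.1, 32.8 and 16.2 CPM against 17.5, 18 and 19.0 CPM, overlapping groups with a log2 fold change of -0.37. Only Ndufaf3 and Ndufaf5 of these stayed well below 0 without Ctrl replicate 2, at -0.22 and -0.16, while Ndufs6 stood at -0.038. The 8 Ndufaf genes are assembly factors and no part of the finished complex. They had a median of -0.15, and the 39 tested genes without them one of -0.16. With Ctrl replicate 2 left out these medians were 0.016 and 0.098.

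The core of complex I, which carries electrons from NADH along iron-sulfur clusters to ubiquinone, is made partly by nuclear genes, of which 6 are described. Ndufv1, which binds NADH, and Ndufv2 beside it had log2 fold changes of -0.11 and -0.16. Ndufs1, the large iron-sulfur subunit, stood above 0 at 0.090, with 88.2, 89.6 and 101 CPM in Ctrl and 94.7, 100 and 101 CPM in cKO. Ndufs3 had -0.21, and Ndufs7 and Ndufs8, which carry the last iron-sulfur clusters before ubiquinone, -0.36 and -0.30. Without Ctrl replicate 2 the values of the last 2 were 0.066 and -0.070. Ndufs7 shows the spread behind these numbers, with 21.4, 35.3 and 13.4 CPM in Ctrl, a range that holds all its cKO values (17.95, 19.3 and 17.6 CPM). None of the 6 passed the test in edgeR, with adjusted p between 0.84 and 0.92.

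Ndufa4 is now counted as a subunit of complex IV although its symbol places it in complex I. Its TPM was 892 ± 88.9 in Ctrl and 1049 ± 62.9 in cKO (SD, n = 3), against 9.29 ± 4.30 and 8.43 ± 1.39 for its paralog Ndufa4l2. Their log2 fold changes on CPM were 0.027 and -0.36, and neither passed the test (edgeR adjusted p = 0.98 and 0.89). The X-linked members Ndufa1, Ndufb11 and Cox7b had log2 fold changes of -0.098, -0.14 and -0.052. The estimated counts of Ndufb4 and Ndufb4c were not whole in any library (267.45 and 103.55 in Ctrl replicate 1), while the sum of Ndufb4, Ndufb4b and Ndufb4c was whole in all 6 (371 there), as where reads are divided among these genes, so that their single values are uncertain. Ndufb4b, with 4.32 counts in 1 library, was the fifth member left out of the test.

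Complex II has 4 subunits, all nuclear-encoded, and showed the smallest spread between libraries of the 5 complexes (SD between replicates of the median log2 deviation 0.13, against 0.21 to 0.27 in the others). Sdha, the catalytic flavoprotein, had 159, 170 and 150 CPM in Ctrl and 154, 175 and 166 CPM in cKO. Sdhb, the iron-sulfur subunit, had 67.0, 85.6 and 55.2 CPM against 63.0, 63.8 and 67.2 CPM. Both groups overlapped, with log2 fold changes of 0.045 ± 0.11 and -0.099 ± 0.16 (SE). Of the membrane anchors, Sdhc had 56.4, 70.8 and 51.18 CPM in Ctrl and 51.3, 52.2 and 50.4 CPM in cKO (log2 fold change -0.21), and Sdhd had 49.7, 52.1 and 44.4 CPM against 47.8, 45.7 and 49.2 CPM (-0.036). None of the 4 passed the test (edgeR adjusted p between 0.83 and 0.96). The complex II median was -0.068, and 0.048 without Ctrl replicate 2.

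All 9 complex III genes were below 0 (median -0.098), and the median was 0.14 without Ctrl replicate 2. Uqcrh, the hinge protein that helps cytochrome c to dock, had 76.8, 94.3 and 75.3 CPM in Ctrl and 74.8, 63.4 and 69.0 CPM in cKO. Its groups did not overlap, by a gap that was small beside their spread, and the log2 fold change was -0.25 ± 0.12 (SE; adjusted p = 0.80, edgeR). Uqcrfs1, the Rieske iron-sulfur protein, and Cyc1, cytochrome c1, had log2 fold changes of -0.11 and -0.050, and the core proteins Uqcrc1 and Uqcrc2 had -0.098 and -0.015. Cyc1 stood at 68.3, 100 and 59.2 CPM in Ctrl and at 71.1, 80.9 and 68.1 CPM in cKO. Uqcrq, a small subunit, had 28.2, 50.6 and 20.1 CPM against 29.1, 28.5 and 27.9 CPM, and its log2 fold change was -0.21 with and 0.24 without Ctrl replicate 2. Cycs, cytochrome c itself, lies outside the symbol rule and had a log2 fold change of 0.12 (adjusted p = 0.89, edgeR).

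All 17 complex V genes were below 0 as well (median -0.13), with a median of 0.080 without Ctrl replicate 2. The catalytic head is built from the alpha, beta and gamma subunits. Atp5a1 (alpha) had 577, 700 and 533 CPM in Ctrl and 510, 531 and 518 CPM in cKO, groups that did not overlap by a gap of less than 2 CPM, with a log2 fold change of -0.21 ± 0.13 (SE; adjusted p = 0.82, edgeR). Atp5b (beta) had 775, 911 and 690 CPM against 746, 756 and 759 CPM (-0.072), and Atp5c1 (gamma) had 176, 207 and 178 CPM against 181, 168 and 180 CPM (-0.086). Atp5k, a membrane subunit, and Atp5o, in the stalk that holds the head, had log2 fold changes of -0.35 and -0.25 (edgeR adjusted p = 0.82 for both). Atp5a1, Atp5k and Atp5o stood, with Ctrl replicate 2 left out, at -0.094, -0.11 and -0.084.

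The rotating c-ring of ATP synthase is made from a protein that 3 genes, Atp5g1, Atp5g2 and Atp5g3, encode with the same mature form. Their order was the same in both groups: Atp5g3 was the highest at a TPM of 686 ± 125 in Ctrl and 690 ± 25.2 in cKO, Atp5g2 followed at 450 ± 40.4 and 464 ± 44.2, and Atp5g1 was the lowest at 214 ± 44.8 and 231 ± 9.91 (SD, n = 3). The ranges of the 3 genes over the libraries of a group did not meet. The ratio of Atp5g3 to Atp5g1 was 3.22 ± 0.10 in Ctrl and 2.99 ± 0.23 in cKO, a difference within the spread between libraries. Their log2 fold changes on CPM were -0.081, -0.13 and -0.18 for Atp5g1, Atp5g2 and Atp5g3.

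**Figure D5:**
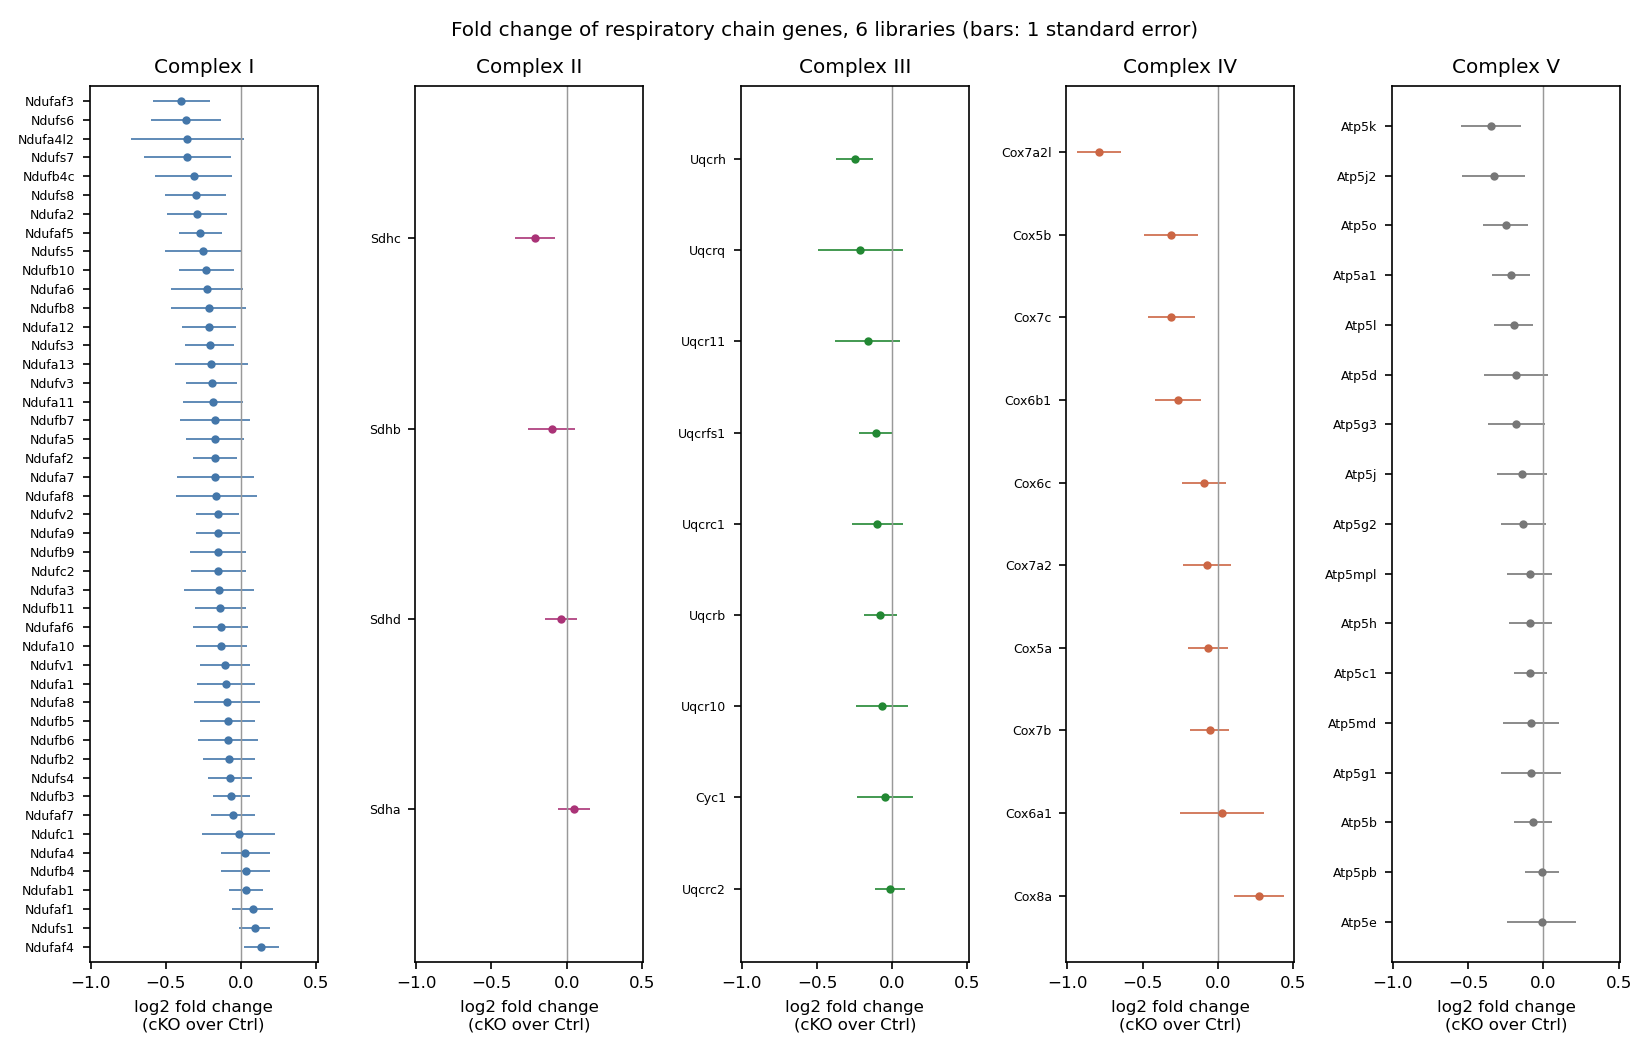
Log2 fold change (cKO over Ctrl, x axis) with 1 standard error for 86 of the 87 tested genes from the fit of all 6 libraries, ordered within each complex. Most points lie within about 0.4 below 0, Cox7a2l lies at -0.79 and Cox8a at 0.27, and no gene passed an adjusted p of 0.05 in edgeR.

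Other genes of the pathway were read from lists of assembly factors, regulators and enzymes that feed the chain. Of 50 tested assembly factors, the 8 Ndufaf members among them, 2 were lower and 1 higher at an unadjusted p under 0.05 in edgeR. At that limit 3.49% of all tested genes were lower and 3.14% higher. The groups did not overlap for 6 factors that were lower and 1 that was higher, against 6.93% and 7.35% of all tested genes. Of these factors 0 passed the adjusted p in edgeR or DESeq2. Their median log2 fold change was -0.061, which was 0.027 without Ctrl replicate 2 and 0.0064 with the length and GC correction. The 3 with a low p were Sdhaf1, a factor for the iron-sulfur subunit of complex II (-0.65, adjusted p = 0.58), Uqcc3, a complex III factor (-0.54, adjusted p = 0.60), and Cox16, a complex IV factor (0.37, adjusted p = 0.73), named after their values were seen. With Ctrl replicate 2 left out they stood at -0.37, -0.36 and 0.49 (edgeR adjusted p = 0.33, 0.39 and 0.18). Pet117, another complex IV factor also named after its values were seen, was below the filter and not tested. It had 8, 5 and 6 estimated counts in Ctrl and 0 in each cKO library, and no fold is given at such low counts. The 13 transcriptional regulators of mitochondrial genes tested, which include Nrf1, Gabpa, Yy1, Ppargc1a and Tfam, had a median of -0.049, and the 16 enzymes of the tricarboxylic acid cycle and pyruvate dehydrogenase one of 0.031. With Ctrl replicate 2 left out these were -0.018 and 0.10. In both lists 0 genes passed an unadjusted p of 0.05 in edgeR or DESeq2. Genes of the mitochondrial DNA are not analysed here.

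Ribosomal protein genes, also short and abundant, served as a comparison. Of 84 tested, 67 were lower in cKO at an unadjusted p under 0.05 in edgeR, against 3.49% of all tested genes. In edgeR 2 passed the adjusted p (0.0737% of all tested genes), Rplp0 (log2 fold change -1.32, adjusted p = 0.023) and Rpsa (-1.36, adjusted p = 0.027). The median of the 84 was -0.54, and it was -0.34 without Ctrl replicate 2 and -0.43 with the length and GC correction. The median of the respiratory chain genes went to 0.082 and -0.016 in those fits. The 78 mitochondrial ribosomal protein genes had a median of -0.14, which was 0.027 without Ctrl replicate 2, and the 37 proteasome genes had -0.12, which was -0.015. The difference between these lists was not tested.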

How the data were processed

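RNA-seq of E18.5 cortex was analysed, 3 Ctrl and 3 cKO libraries, grouped by the submitters' labels. The authors deposited 1 table holding, for each gene, estimated counts that were not normalized, together with TPM, scaled per transcript length and library. The FPKM columns deposited by the authors were not used. The submitters' processing notes name HISAT2 2.2.1, Bowtie2 2.4.5 and RSEM 1.3.1 and build GRCm38. Annotation and strandedness are not given in the sources used here. Of the members' estimated counts, 91.8% were whole numbers.

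Estimated counts were rounded, filtered with filterByExpr, and scaled by TMM. Genotypes were compared by the quasi-likelihood test of edgeR 4.0.16 under R 4.3.3, with p-values adjusted over all 13570 genes (Benjamini-Hochberg). CPM values use the TMM-scaled totals, and 3 counts correspond to 0.176 to 0.206 CPM. The biological coefficient of variation common to all genes was 0.147. Replicates differed by more than sampling noise (chi-square per degree of freedom 3.52 to 65.4). Alternatives used DESeq2 1.42.0, limma 3.58.1 on log2(TPM + 1), RLE factors, other filters, TMM factors without the members and ribosomal protein and translation factor genes, a replicate block, single libraries left out, and removal of a smooth trend on the length and GC content of transcripts (mgcv 1.9.3; GENCODE M21, available for 96.7% of genes). The main edgeR fit was tested on simulated counts, with the common coefficient of variation for every gene and no library effect of transcript length. The alternatives were not tested in this way. Single-gene permutation tests were exact and two-sided.

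The members and gene lists were chosen with earlier results of these data known, and no set was tested. Genes were named by rule: any member with an adjusted p under 0.05, the 3 of lowest p in each complex, core subunits, isoform families, X-linked members, and Ybx1, Cox4i1, Cox4i2, Cycs and any called gene of the other lists. Plots were drawn with matplotlib 3.10.9. The single values of 1 member are not reported here, and the counts and medians include it.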

Additional observations from a re-analysis of the deposited data

How the results depend on the processing

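Of the 48 named genes, every one kept its direction with RLE size factors, DESeq2, no filter on low counts, a filter of CPM above 1 in 2 libraries, TMM factors without the members and ribosomal protein and translation factor genes, and the replicate block. Cox7a2l was negative and Cox8a positive under all 16 alternatives. DESeq2 called 99 genes in all, among them 1 member (Cox7a2l).

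The replicate numbers were not shown to pair the libraries: the deviations of same-numbered Ctrl and cKO libraries from their group means correlated at 0.088, 0.061 and 0.23, although each library correlated best with its own number. With the replicate block 2 members were lower at an unadjusted p under 0.05 (3.64% of all genes) and 76 were below 0 (47.7% of all genes). In that fit 0 members were called in edgeR, and 11 of all genes were called instead of 10.

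With the length and GC correction 150 genes were called, 2 of them members. At an unadjusted p under 0.05, 2 members were lower and 2 higher (6.46% and 6.23% of all genes), and 48 were below 0 (48.6% of all genes). The groups did not overlap for 4 members that were lower and 6 that were higher, against 9.96% and 10.2% of all genes. With the correction and the replicate block these counts were 137, 2, 1, 2, 47, 4 and 6. There the shares of all genes were 7.10% lower and 7.04% higher at that limit, 47.9% below 0, and 9.96% and 10.2% without overlap. The log2 fold changes that turned positive with the correction were Atp5b 0.011, Atp5g2 0.098, Cox7a2 0.14, Cox7b 0.029, Cyc1 0.10, Ndufa1 0.11, Ndufb11 0.050, Ndufv1 0.029, Sdhb 0.057, Sdhd 0.063 and Uqcrc2 0.0029, and with the correction and the replicate block Atp5b 0.012, Atp5g2 0.097, Cox7a2 0.14, Cox7b 0.026, Cyc1 0.10, Ndufa1 0.11, Ndufb11 0.051, Ndufv1 0.030, Sdhb 0.057, Sdhd 0.064 and Uqcrc2 0.0041.

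On log2(TPM + 1) with limma the median of all genes shifted to 0.14, so that members are read relative to it. The members' median was 0.067, or -0.074 relative to all genes, and 25 were below 0 (20.6% of all genes). At an unadjusted p under 0.05, 1 member was lower and 3 were higher, against 1.503% and 8.83% of all genes. The groups did not overlap for 1 lower and 10 higher members (2.43% and 19.2% of all genes), and the complex II median was 0.099. The values that turned positive there were Atp5b 0.087, Atp5c1 0.071, Atp5g1 0.13, Atp5g2 0.045, Atp5g3 0.024, Cox5a 0.11, Cox6c 0.11, Cox7a2 0.12, Cox7b 0.10, Cyc1 0.14, Ndufa1 0.12, Ndufb11 0.067, Ndufv1 0.072, Ndufv2 0.014, Sdhb 0.079, Sdhd 0.12, Uqcrc1 0.082, Uqcrc2 0.14, Uqcrfs1 0.045 and Uqcrq 0.046, all of which lie below the shift of all genes.

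Leaving out single libraries moved more. The number of called genes ran from 8 to 122 (122 without Ctrl replicate 2) and of called members from 0 to 2. Members lower at an unadjusted p under 0.05 ran from 1 to 19 (19 without Ctrl replicate 3, where 7.97% of all genes were lower) and higher ones from 0 to 5 (5 without Ctrl replicate 2, where 5.51% were higher). Members below 0 ran from 22 without Ctrl replicate 2 to 81 without Ctrl replicate 3, against 48.9% and 48.8% of all genes. Members without overlap ran from 5 to 24 lower (24 without Ctrl replicate 3, against 16.5% of all genes) and from 0 to 17 higher (17 without Ctrl replicate 2, against 15.02% of all genes, with 5 members lower against 14.8%). The members' median ran from -0.26 to 0.082, and for complexes I to V it ran from -0.29 to 0.097, -0.17 to 0.048, -0.20 to 0.14, -0.22 to 0.056 and -0.25 to 0.080. For each of these medians the highest value came without Ctrl replicate 2 and the lowest without Ctrl replicate 3.

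Genes whose log2 fold change changed sign in one of these fits had the ranges Atp5b -0.16 to 0.041, Atp5g1 -0.27 to 0.19, Atp5g2 -0.26 to 0.013, Atp5g3 -0.35 to 0.082, Cox5a -0.14 to 0.064, Cox6a1 -0.23 to 0.44, Cox6c -0.20 to 0.078, Cox7a2 -0.21 to 0.13, Cox7b -0.14 to 0.047, Cyc1 -0.20 to 0.20, Ndufa1 -0.24 to 0.16, Ndufa4 -0.11 to 0.23, Ndufa4l2 -0.58 to 0.23, Ndufb11 -0.28 to 0.083, Ndufs3 -0.32 to 0.010, Ndufs7 -0.63 to 0.066, Ndufv1 -0.24 to 0.12, Ndufv2 -0.25 to 0.020, Sdhb -0.24 to 0.082, Sdhd -0.099 to 0.014, Uqcrc1 -0.22 to 0.14, Uqcrc2 -0.059 to 0.033 and Uqcrq -0.47 to 0.24. Without Ctrl replicate 2 there were 21 such changes, and between 1 and 4 without each of the other libraries.

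The length and GC correction without Ctrl replicate 2, added after seeing the data, called 245 genes, 2 of them members (Cox7a2l and Cox8a). It gave 7 members higher and 1 lower at an unadjusted p under 0.05 (7.03% and 8.12% of all genes) and 25 below 0 (48.8% of all genes). It also gave 21 higher and 5 lower without overlap (16.5% and 16.7% of all genes) and a members' median of 0.070. Its values of changed sign were Atp5b 0.027, Atp5g1 0.20, Atp5g3 0.076, Cox5a 0.069, Cox6c 0.070, Cox7a2 0.13, Cox7b 0.055, Cyc1 0.12, Ndufa1 0.17, Ndufa4l2 0.16, Ndufb11 0.076, Ndufs7 0.010, Ndufv1 0.066, Ndufv2 0.023, Sdhb 0.066, Sdhd 0.00070, Uqcrc1 0.12, Uqcrc2 0.022 and Uqcrq 0.22.

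With 3 libraries a group, differences of the size seen for most members lie within the spread between libraries, and counts of 3 or fewer give no level.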
